A study of Mus musculus with 20 samples.

Results

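The 10 arrays described here are 5 adenomas from mice fed phenobarbital and 5 carcinomas from untreated mice, chosen by their titles out of the 20 arrays of the series. All 20 samples came from livers of male C57BL/6 mice labelled conditional APCko, in which tamoxifen triggers loss of the tumour suppressor Apc. Each mouse had received 1 injection of 0.75 mg tamoxifen at 6 weeks of age, and 1 week later it went on a 0.05% phenobarbital diet or stayed on standard chow for 9 months. The remaining 10 arrays hold non-tumour liver, 5 samples from phenobarbital mice and 5 from untreated mice, and serve below as reference levels. The series description also mentions initiation with DEN (diethylnitrosamine), which the sample protocols do not list. The sources used here do not name the promoter driving the recombinase or the cells it acts in. No label ties a sample to an animal, so p-values describe the spread among the 5 samples of a group, which may be technical. Because every adenoma came from a mouse on the drug and every carcinoma from a mouse without it, effects of diet and of tumour stage cannot be told apart.

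Apc is a scaffold of the complex that marks beta-catenin for destruction. When Apc is lost, beta-catenin accumulates and switches on Wnt target genes with TCF/LEF factors. In the liver lobule this pathway sets up the pericentral zone, whose hepatocytes make glutamine, start bile acid synthesis and carry most drug-metabolising P450 enzymes, while periportal hepatocytes run urea synthesis and gluconeogenesis. Phenobarbital activates the nuclear receptor CAR (gene Nr1i3), which induces P450 genes such as Cyp2b10 and promotes the growth of liver tumours in mice.

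The arrays report each gene as a log2 level, so a difference of 1 is 2-fold. A gene was read from its brightest probe set, and differences are adenomas minus carcinomas, fitted with limma and adjusted by the Benjamini-Hochberg method over 34945 probe sets. Of 18193 genes, 10061 (55.3%) passed an adjusted p of 0.05, with 5359 (29.5%) higher and 4702 (25.8%) lower in adenomas. That order turned when probe sets below the median level on most arrays were left out, with 3270 genes higher and 4064 lower. A probe set could pass this filter through the adenomas alone or the carcinomas alone, so it does not settle the order. At the level of probe sets, 18236 of 34945 (52.2%) passed. The 5 adenoma and 5 carcinoma values did not overlap for 7640 genes (42.0%). At least 2-fold differences that passed were found for 4745 genes (26.1%), of which 2071 (11.4%) were higher and 2674 (14.7%) were lower in adenomas. Since 55.3% of genes passed, a passing gene was the common case, and the levels and sizes below are given for that reason. The correlation of arrays across genes was 0.969 to 0.986 among adenomas, 0.955 to 0.988 among carcinomas and 0.764 to 0.847 between the groups.

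The adenomas stayed close to non-tumour liver and the carcinomas did not. Across genes, adenoma arrays correlated with phenobarbital liver arrays at 0.953 to 0.961, and carcinoma arrays with untreated liver arrays at 0.727 to 0.818. Among the 2071 genes at least 2-fold higher in adenomas, 1341 (64.8%) had an adenoma mean within 1 log2 unit of phenobarbital liver and a carcinoma mean farther than that from untreated liver. The reverse held for 156 genes (7.53%). Among the 2674 genes at least 2-fold lower in adenomas, 2133 (79.8%) lay near liver in adenomas and away from it in carcinomas, and 38 (1.42%) showed the reverse. In these counts the carcinoma mean was away from liver more often than the adenoma mean.

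**Figure D1:**
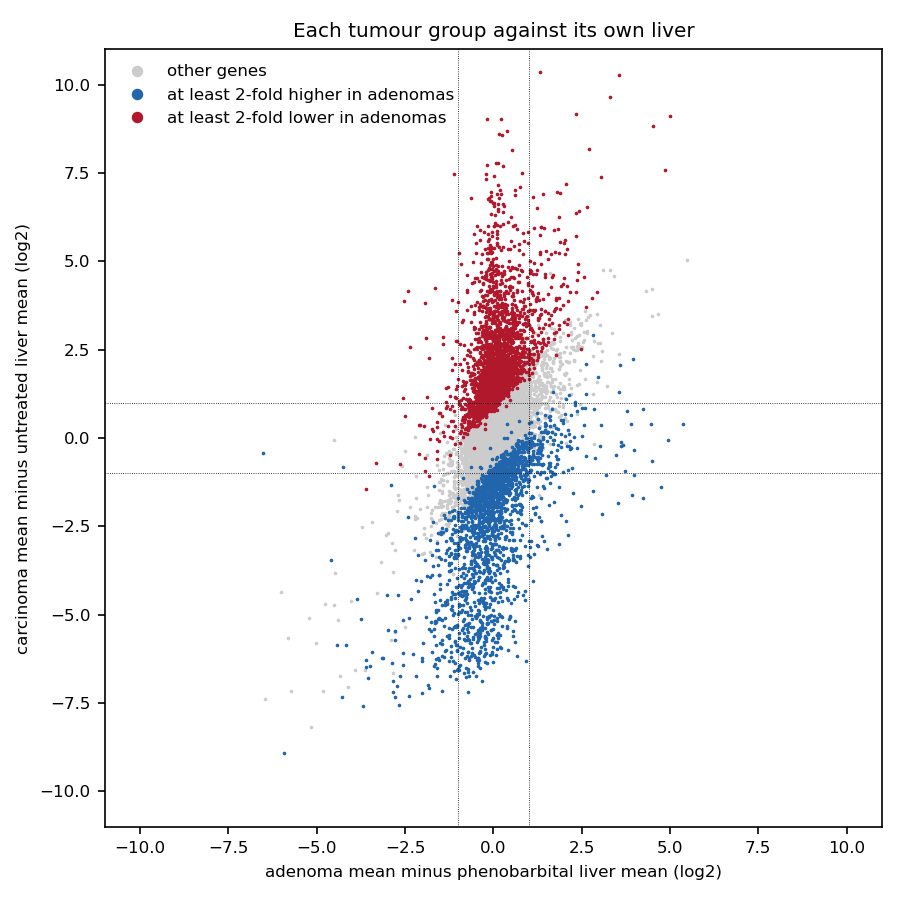
Each point is 1 of 18193 genes, placed by the adenoma mean minus the phenobarbital liver mean (horizontal axis, log2) and the carcinoma mean minus the untreated liver mean (vertical axis, log2), with dotted lines at 1 log2 unit either way. Genes at least 2-fold higher in adenomas (blue, 2071) and lower in adenomas (red, 2674) spread along the vertical axis more than along the horizontal one.

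The genes that led the comparison in each direction differed in the DNA before their starts. RefSeq promoter sequences (GRCm38.p6) were matched by symbol for 14452 of the 18193 genes, and CG dinucleotides were counted in the 250 bases before the start. Those 250 bases are printed 5′ to 3′ for 5 genes, with each CG in capitals, as examples picked to show the contrast. Cyp2c37 and Afp were high in adenomas, and Armh4, Tbx4 and Axin2 were high in carcinomas. Afp and Axin2 are not among the 12 leading genes of their direction.
Cyp2c37 (chr19:39992174-39992423, plus strand): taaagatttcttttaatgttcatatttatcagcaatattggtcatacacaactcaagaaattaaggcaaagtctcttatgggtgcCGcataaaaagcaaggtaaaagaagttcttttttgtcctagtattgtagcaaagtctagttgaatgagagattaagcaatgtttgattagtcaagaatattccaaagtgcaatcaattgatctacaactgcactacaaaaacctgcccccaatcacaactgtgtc
Afp (chr5:90490464-90490713, plus strand): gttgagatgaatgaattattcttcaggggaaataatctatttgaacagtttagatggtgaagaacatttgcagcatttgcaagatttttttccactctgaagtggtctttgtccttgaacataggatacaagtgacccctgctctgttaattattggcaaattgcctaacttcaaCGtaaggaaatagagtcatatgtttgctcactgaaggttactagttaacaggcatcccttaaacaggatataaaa
Armh4 (chr14:49783384-49783633, minus strand): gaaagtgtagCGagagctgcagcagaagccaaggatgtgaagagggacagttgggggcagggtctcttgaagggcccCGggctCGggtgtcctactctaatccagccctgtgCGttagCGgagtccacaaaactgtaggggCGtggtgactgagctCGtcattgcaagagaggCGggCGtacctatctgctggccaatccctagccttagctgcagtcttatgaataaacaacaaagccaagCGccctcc
Tbx4 (chr11:85896515-85896764, plus strand): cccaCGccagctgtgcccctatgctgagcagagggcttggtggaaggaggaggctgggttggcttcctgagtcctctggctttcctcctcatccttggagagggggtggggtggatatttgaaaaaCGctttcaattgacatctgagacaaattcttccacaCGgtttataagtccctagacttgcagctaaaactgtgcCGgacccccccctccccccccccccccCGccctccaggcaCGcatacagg
Axin2 (chr11:108920099-108920348, plus strand): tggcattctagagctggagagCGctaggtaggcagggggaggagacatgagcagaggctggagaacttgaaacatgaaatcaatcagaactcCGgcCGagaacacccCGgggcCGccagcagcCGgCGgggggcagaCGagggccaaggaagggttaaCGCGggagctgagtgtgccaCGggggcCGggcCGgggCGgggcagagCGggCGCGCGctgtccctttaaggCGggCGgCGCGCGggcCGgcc
Cyp2c37 and Afp each hold 1 CG, Tbx4 holds 6, Armh4 holds 10 and Axin2 holds 24. Some other named genes did not follow the contrast. Glul (15 CG) and Cbr3 (14) were higher in adenomas, and Tnnt2, Pla2g5 and Fxyd6, with 5 each, were higher in carcinomas. Of the 12 leading genes in each direction, 9 of those high in adenomas and 10 of those high in carcinomas had a sequence. The median was 1 CG in the former and 10.5 in the latter, against 13 over all 14452 genes. Among genes at least 5 log2 units higher in adenomas (116 with a sequence), the median was 3 CG and 57.8% held 3 or fewer. Among genes at least 5 log2 units lower in adenomas (87), the median was 11 and 8.05% held 3 or fewer, against 19.1% of all genes. The HNF1 half-site GTTAAT, read on both strands, was found in 13.8% of the first set, 2.30% of the second and 4.69% of all genes. The TCF/LEF motif CTTTGA, read the same way, was found in 20.7%, 12.6% and 12.2%. Both motifs hold more A and T than G and C. The median GC content was 48.2% in the first set, 59.6% in the second and 57.6% over all genes. The part of base composition in the motif counts was not tested. Among the leading genes with a sequence, the half-site was in 0% of either direction. The TCF/LEF motif was in 22.2% of those high in adenomas and 0% of those high in carcinomas. These counts describe letters in a short window and show no binding.

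The 12 leading genes higher in adenomas mostly encode hepatocyte enzymes. Cyp2c37, a P450 of the Cyp2c family, read 12.92, 13.86, 12.97, 13.34 and 11.51 in adenomas 1 to 5 and 7.66, 3.87, 5.53, 6.19 and 4.0 in carcinomas 1 to 5. Every adenoma was far above every carcinoma, and the carcinomas themselves ranged widely. The difference was 7.47 (SE 0.70, adjusted p = 7.6e-06), or 177-fold, and the liver means were 13.90 with phenobarbital and 12.01 without. Cyp7a1, which catalyses the limiting first step from cholesterol to bile acids, read 12.39, 12.84, 11.91, 11.60 and 11.61 in adenomas and 6.20, 4.38, 5.52, 4.63 and 4.60 in carcinomas. Its difference was 7.0 (SE 0.37, adjusted p = 1.4e-07), and all 5 adenomas lay above the liver means of 11.16 and 11.37. Ddc (aromatic amino acid decarboxylase), Gsta2 (a glutathione transferase), Akr1d1 (a steroid reductase of bile acid synthesis), Ces1g (a carboxylesterase), Cyp2c54, Fabp2 (a fatty acid binding protein), Akr1c19, Ugt2b34 (a glucuronosyltransferase) and Cyp1a2 differed by 6.4 to 6.77. For these 9 genes the adenoma means were 11.10 to 13.39, and the carcinoma means were 4.61 to 6.95.

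Ly6d, a small membrane-anchored protein, stood apart in this group in that both livers were well below the adenomas. It read 11.61, 12.16, 13.68, 13.33 and 13.33 in adenomas and 6.85, 5.47, 7.15, 6.30 and 5.27 in carcinomas, a difference of 6.61 (SE 0.47, adjusted p = 1.1e-06). The liver means were 8.84 with phenobarbital and 7.24 without. The adenomas were thus above both tumour-free liver groups as well as above the carcinomas.

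The 12 leading genes in the opposite direction had adenoma means of 3.51 to 5.38, below the adenoma array medians of 5.52 to 5.57. Armh4, which encodes a membrane protein, read 3.34, 3.77, 3.73, 3.62 and 3.36 in adenomas and 12.99 to 13.36 in carcinomas 1, 2, 4 and 5. Carcinoma 3, at 10.47, was lower than the other carcinomas and still far above every adenoma. The difference was -9.03 (SE 0.47, adjusted p = 1.4e-07), or 523-fold. Tbx4, a T-box transcription factor of limb and lung development, read 3.78, 3.49, 3.81, 3.70 and 3.86 in adenomas and 11.28, 11.48, 11.57, 11.16 and 11.51 in carcinomas. Both groups were tight, and the difference of -7.67 had an SE of 0.11 (adjusted p = 5.1e-11). Wif1, a secreted Wnt inhibitor, was at 13.69 to 13.78 in the carcinomas. Its adenoma values were 6.98, 3.26, 7.12, 3.60 and 3.23, so adenomas 1 and 3 stood well above the liver means of 3.51 and 3.36 and the others lay near them.

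The other 9 leading carcinoma genes include several known mainly from heart, nerve or matrix. Tnnt2 (cardiac troponin T), Egfl6 (a secreted matrix protein), Pla2g5 (a secreted phospholipase), Dner (a neuronal Notch ligand), Epha7 (an ephrin receptor), Clic6, Gpr37, Fxyd6 and Slc14a1 (a urea transporter) differed by -8.81 to -7.58. Their carcinoma means were 11.66 to 13.38. Epha7 varied least in carcinomas, at 11.76 to 11.99, and Tnnt2 most, at 10.20 to 13.67.

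**Figure D2:**
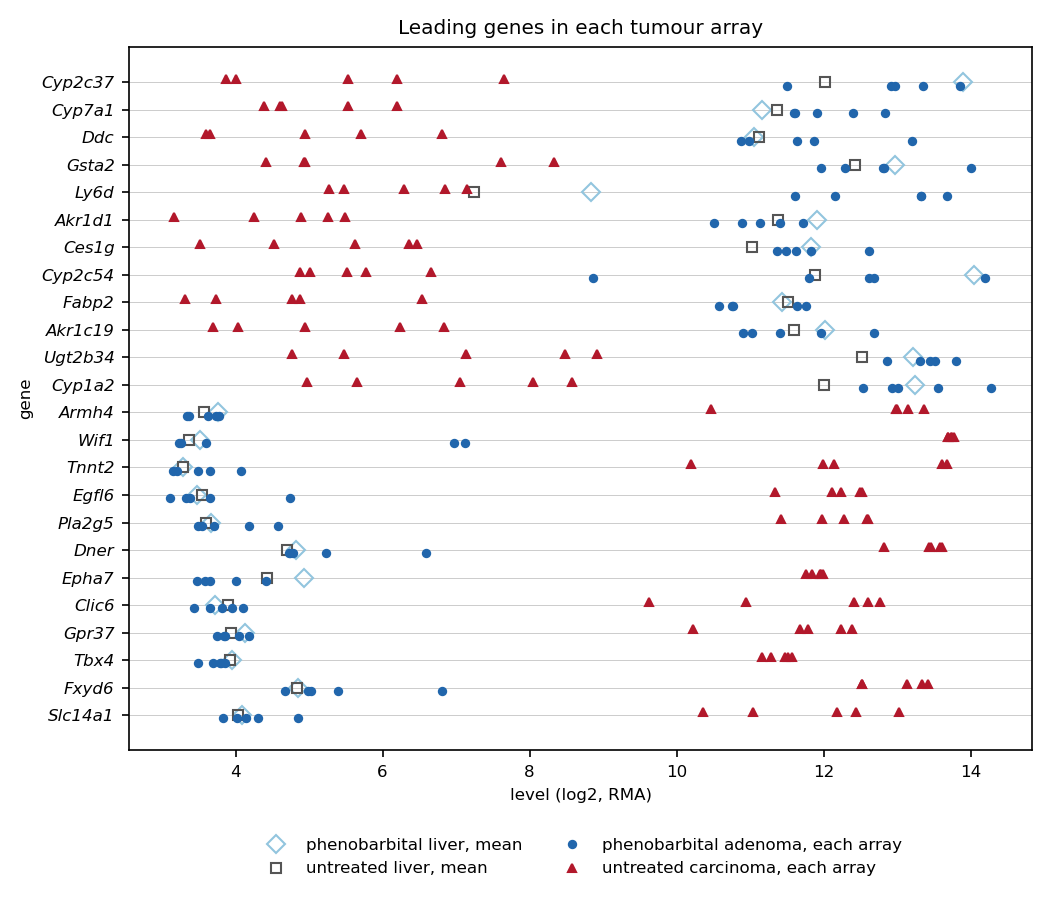
Level of the 12 leading genes in each direction (log2, horizontal axis) in each adenoma array (blue circles) and each carcinoma array (red triangles), with the mean of phenobarbital liver (open diamonds) and untreated liver (open squares). Carcinoma values of the upper 12 genes spread over several log2 units, and adenoma means of the lower 12 genes lie within 1 log2 unit of phenobarbital liver except Wif1, which is raised in adenomas 1 and 3, and Epha7, whose 5 adenomas are at 3.47 to 4.41 against a phenobarbital liver mean of 4.94.

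Apc and Ctnnb1, the gene of beta-catenin, were both lower in adenomas. Apc read 8.96, 9.25, 9.09, 9.21 and 8.79 in adenomas and 10.60, 10.59, 10.53, 10.97 and 10.73 in carcinomas (difference -1.62, SE 0.12, adjusted p = 1.4e-06), with liver means of 8.54 and 8.84. The carcinomas were above liver and the adenomas near it. The sources used here do not state which part of Apc is deleted, and a 3′ probe set outside it does not check the deletion. Ctnnb1 had a mean of 12.24 ± 0.28 (SD, n = 5) in adenomas and 14.08 ± 0.19 (SD, n = 5) in carcinomas (difference -1.84, SE 0.15, adjusted p = 2.3e-06), with livers at 12.12 and 12.20.

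Some Wnt target genes were above liver in both tumours and others were high mainly in carcinomas. Axin2, a feedback inhibitor of the pathway, read 10.07, 8.66, 9.38, 8.21 and 9.61 in adenomas and 11.83, 11.88, 11.93, 12.49 and 11.96 in carcinomas. The liver means were 6.79 with phenobarbital and 7.09 without, so every tumour array was above them, the carcinomas more so (difference -2.83, SE 0.31, adjusted p = 2.5e-05). Lgr5, the R-spondin receptor, had means of 8.90 ± 0.56 in adenomas and 8.97 ± 1.12 in carcinomas (SD, n = 5), against 7.18 and 7.49 in liver. The tumour groups overlapped, and the difference of -0.07 (SE 0.49, adjusted p = 0.92) turned sign under several scalings and without carcinoma 4, where it was 0.37. Apcdd1, a Wnt inhibitor at the membrane, was 4.82 to 6.50 in adenomas and 11.49 to 13.68 in carcinomas (difference -7.36, SE 0.42, adjusted p = 2.2e-07).

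Of the 28 measured Wnt feedback and target genes, 16 were lower and 3 higher in adenomas, and 9 did not pass. Their median difference was -1.79, against 0.10 over all genes, and it was -1.10 when probe sets of a gene were averaged. Relative to its own liver, the median member was 1.14 higher in adenomas and 3.06 higher in carcinomas. Among the genes that passed, the 2 largest rises in adenomas were Fzd7, a Wnt receptor (1.38, SE 0.27, adjusted p = 0.0014), and Sfrp5, a secreted Wnt inhibitor (0.41, SE 0.12, adjusted p = 0.017), and Zcchc12 was the third that passed (0.39, SE 0.09, adjusted p = 0.0047). Zcchc12 and other members beyond the 2 with the largest change in a direction are named here where 5 or fewer passed, and were chosen after their values were seen. Among 35 core pathway genes 9 were higher, 18 lower and 8 did not pass, against 29.5% higher and 25.8% lower over all genes. The frizzled receptors split, with Fzd5 (3.22, SE 0.27, adjusted p = 3.5e-06) and Fzd4 (1.74, SE 0.20, adjusted p = 2.8e-05) higher in adenomas and Fzd6 lower (-3.48, SE 0.33, adjusted p = 8.4e-06). Other probe sets differed less, at 0.26 for Fzd5 (not passing) and at 1.64 (passing) and 0.13 (not passing) for Fzd4. For Fzd6 they were at -0.60 (passing) and 0.25 (not passing), and for Fzd7 at 0.33 (not passing). The ligand Wnt5a read 5.29, 4.83, 5.94, 4.47 and 7.71 in adenomas and 10.44, 10.43, 8.06, 11.07 and 10.75 in carcinomas. Adenoma 5 and carcinoma 3 came close to each other without crossing.

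Pericentral hepatocyte genes went the other way from the feedback genes. Glul (glutamine synthetase) read 14.35, 14.36, 14.27, 14.34 and 14.32 in adenomas and 13.49, 13.35, 13.11, 13.81 and 13.46 in carcinomas, a difference of 0.88 (SE 0.12, adjusted p = 0.00013). Liver means were 13.09 and 12.88, so Glul was highest in adenomas, near the top of the scale, where arrays compress differences. Cyp2e1, a pericentral P450, was 14.24 to 14.65 in adenomas, as in liver (14.49 and 14.38). In carcinomas 1 to 5 it read 12.98, 8.44, 11.94, 11.90 and 10.52, and the difference was 3.36 (SE 0.68, adjusted p = 0.0019). Of 24 measured pericentral genes, 19 were higher and 1, Axin2, lower in adenomas, and 4 did not pass, with a median of 3.53. Against its own liver the median pericentral gene differed by 0.78 in adenomas and -2.14 in carcinomas.

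Periportal genes were below liver in both tumours. Of 23 measured, 15 were higher in adenomas than in carcinomas, none was lower and 8 did not pass, with a median of 2.59. The median member differed by -2.87 from phenobarbital liver in adenomas and by -5.93 from untreated liver in carcinomas. Their mean level was 8.50 to 9.64 over adenoma arrays, 5.39 to 7.47 over carcinoma arrays and 11.55 to 12.41 over liver arrays, with no overlap between these 3 sets. Igfbp1, an IGF binding protein, was an exception in adenomas, at 13.07 to 14.32 against liver means of 9.02 and 9.63, and it was 5.76 to 9.88 in carcinomas (difference 5.52, SE 0.76, adjusted p = 0.00013). Fbp1, a gluconeogenic enzyme, was 12.93 to 14.05 in adenomas and 5.23 to 10.29 in carcinomas.

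**Figure D3:**
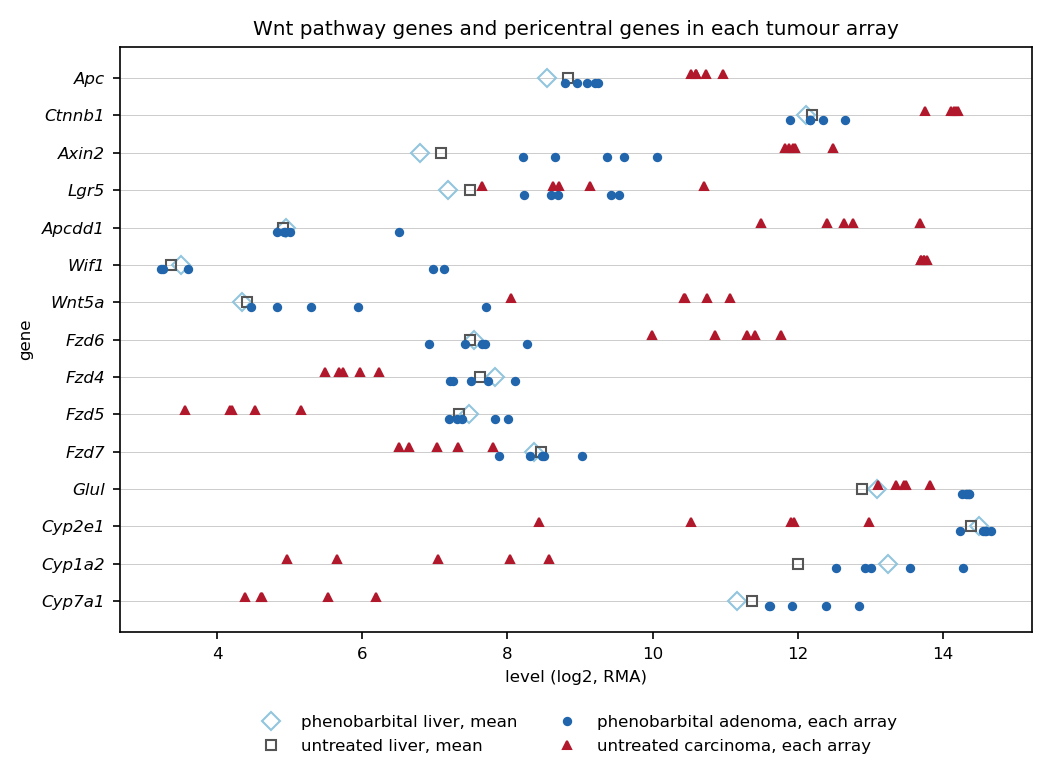
Level (log2, horizontal axis) of Wnt pathway genes and pericentral genes in each adenoma array (blue circles) and carcinoma array (red triangles), with liver means (open diamonds for phenobarbital, open squares for untreated). Axin2 is above liver in all 10 tumours, Lgr5 overlaps between the tumour groups, Wif1 and Apcdd1 are high in carcinomas, and Glul is at 14.27 to 14.36 in adenomas.

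Genes of drug metabolism were the highest-ranking list by median. Of 16 measured CAR and PXR target P450 genes, 13 were higher in adenomas, none was lower and 3 did not pass, with a median of 5.03. Cyp2b10, the classical CAR target, read 7.64, 13.22, 11.01, 12.46 and 9.24 in adenomas and 4.85 to 5.77 in carcinomas. Adenomas 2 and 4 were near the phenobarbital liver mean of 13.13, and adenoma 1 was near the untreated liver mean of 7.51. The difference was 5.44 (SE 0.90, adjusted p = 0.00047). Nr1i3, which encodes CAR, was 7.83 to 9.99 in adenomas and 5.34 to 5.83 in carcinomas (difference 3.21, SE 0.37, adjusted p = 3.3e-05), with livers at 9.63 and 9.38. Phase II and transport genes followed, with 31 of 37 higher, none lower and a median of 4.80.

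Few genes passed in the comparison of the diets in tumour-free liver. Phenobarbital against untreated liver, on the 10 liver arrays that the tumour fit leaves out, called 222 of 18193 genes (1.22%), with 160 (0.879%) higher and 62 (0.341%) lower. Leaving out single arrays gave 115 to 204 genes, with 115, 125, 141 and 146 without phenobarbital liver 1, 2, 3 and 4 and 143 without untreated liver 1. A fit over all 20 arrays, which pools the spread of livers and tumours, called 37. The overlaps that follow use the 222. Of the 160 genes higher with the drug in liver, 100 (62.5%) were also higher in adenomas than in carcinomas, against 29.5% of all genes. Those 100 are 1.87% of the 5359 genes higher in adenomas, and 0.879% of all genes were higher with the drug in liver. Another 17 (10.6%) of the 160 were lower in adenomas, against 25.8% of all genes. Of the 62 genes lower with the drug, 17 (27.4%) were lower in adenomas, against 25.8% of all genes. More of the 62 went the other way, with 20 (32.3%) higher in adenomas, against 29.5% of all genes. In the P450 list, 9 of 16 genes passed in liver, with a median drug difference of 0.82 and a median tumour difference of 5.03. Cyp2b10 differed by 5.62 between livers (adjusted p = 5.3e-06), while Cyp7a1 differed by -0.20 (adjusted p = 0.65) and Ddc by -0.08 (adjusted p = 0.84). Of the 12 leading genes higher in adenomas, Cyp2c54 (2.17, adjusted p = 0.0225) and Ugt2b34 (0.69, adjusted p = 0.0088) passed in liver. The rest of those 12 did not pass, among them Cyp2c37 (1.89, adjusted p = 0.068) and Ly6d (1.60, adjusted p = 0.069).

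Transcription factors that define hepatocytes were higher in adenomas in 18 of 22 cases, with 3 lower and 1 not passing (median 3.18). Hnf4a, the central hepatocyte regulator, read 12.61, 12.88, 12.47, 12.66 and 12.56 in adenomas and 9.73, 8.46, 8.46, 8.46 and 8.88 in carcinomas (difference 3.84, SE 0.23, adjusted p = 3.4e-07), with livers at 12.60 and 12.66. Nr5a2, a nuclear receptor that regulates Cyp7a1, and Onecut2 differed by 4.92 (SE 0.23, adjusted p = 7.4e-08) and 4.66 (SE 0.22, adjusted p = 6.3e-08). The 3 factors that went the other way were Prox1, Onecut1 and Foxa2. Prox1 was 8.03 to 8.97 in adenomas and 11.47 to 12.58 in carcinomas (difference -3.62, SE 0.22, adjusted p = 3.7e-07). Onecut1 differed by -3.07 (SE 0.41, adjusted p = 9.7e-05) and Foxa2 by -2.06 (SE 0.13, adjusted p = 4.8e-07). For Onecut1 the livers were at 7.88 and 8.47, so the adenomas, at 4.77 to 6.63, were the group away from liver.

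Secreted liver proteins separated the groups and also the carcinomas among themselves. Of 36 plasma protein and coagulation genes, 33 were higher in adenomas, none lower and 3 did not pass (median 4.44). The mean level of the list was 12.54, 12.24, 12.26, 12.15 and 11.97 in adenomas and 9.44, 5.76, 8.49, 9.09 and 7.28 in carcinomas. Carcinoma 2 was the lowest and carcinoma 5 the next, while the adenomas stayed close together. Alb (albumin) read 14.88 to 14.94 in adenomas and 13.83, 9.18, 13.67, 14.03 and 12.59 in carcinomas. Its difference of 2.26 (SE 0.79, adjusted p = 0.032) did not pass in 6 of the 10 fits that left out 1 array, where the adjusted p was 0.055 to 0.060. Without carcinoma 2 it was 1.39 (adjusted p = 0.0014). F13b, a coagulation factor subunit, and Hc (complement C5) differed by 6.18 (SE 0.68, adjusted p = 2.3e-05) and 5.88 (SE 0.74, adjusted p = 6.3e-05). Fga and Fgg, fibrinogen chains chosen here after their values were seen for their spread between carcinomas, were at 4.64 and 4.96 in carcinoma 2 and at 11.24 and 12.20 in carcinoma 4.

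The same order held in part for other liver lists. Carcinoma 2 had the lowest mean level of the phase II, urea cycle, bile acid, acute phase and gluconeogenesis lists, and carcinoma 5 the next lowest in each. In bulk tissue, fewer cells of a type and less RNA per cell cannot be told apart. The 5 defining hepatocyte markers Alb, Apoa1, Ttr, Serpina1c and Hnf4a averaged 13.89 to 14.03 over adenoma arrays and 7.95 to 12.38 over carcinoma arrays, and all 5 were higher in adenomas. The part of residual liver tissue in these results was not tested.

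**Figure D4:**
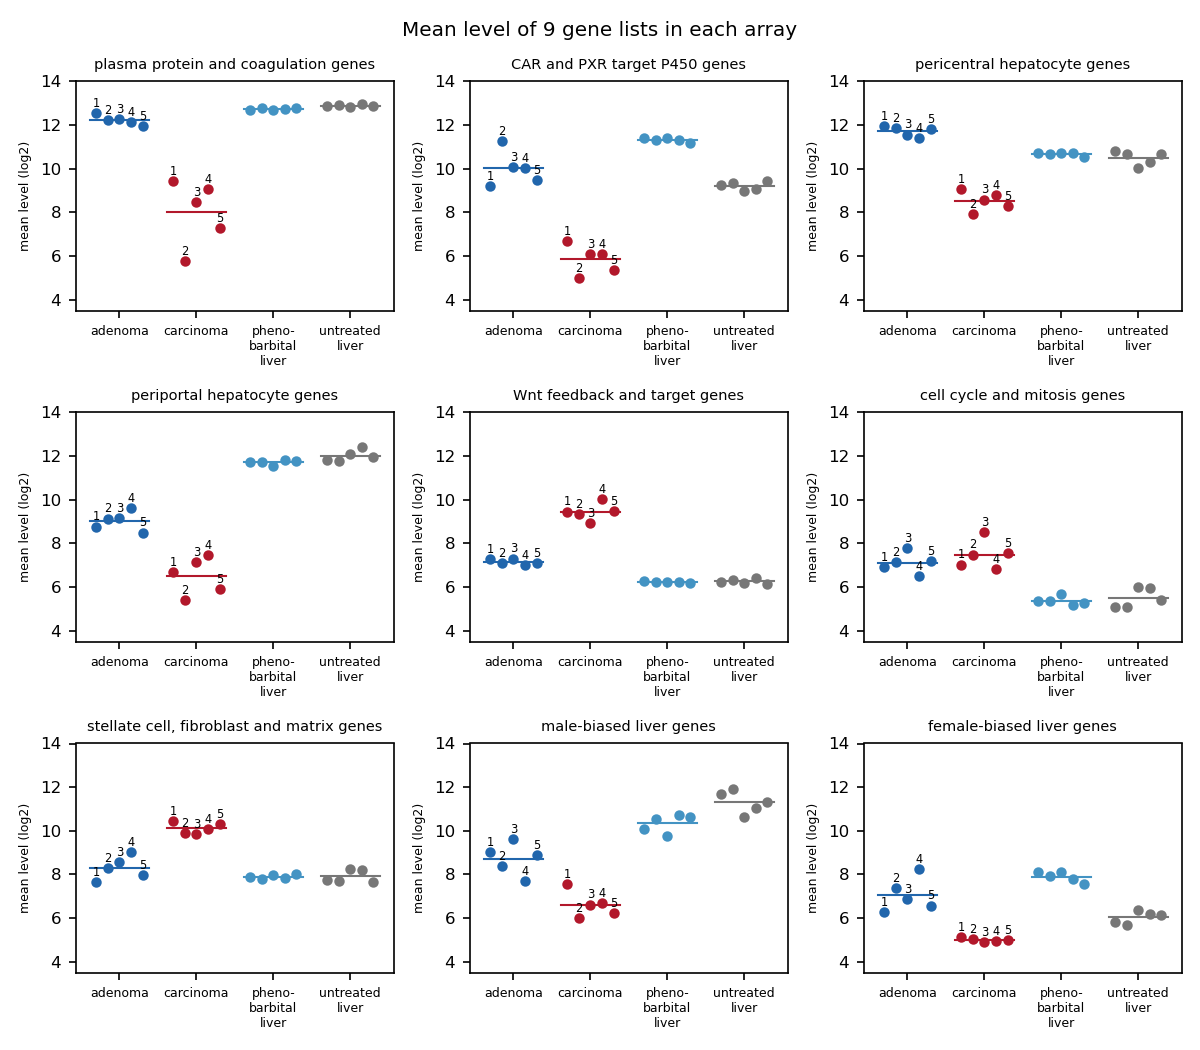
Mean level (log2, vertical axis) of the measured members of 9 gene lists in each array, with adenomas and carcinomas numbered 1 to 5 and a line at each group mean. Carcinoma 2 is lowest for plasma protein genes at 5.76, periportal genes of both tumours lie below liver, cell cycle genes of both tumours lie above liver, and adenoma 4 has the lowest male-biased and highest female-biased level among adenomas.

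Metabolic lists followed the hepatocyte genes. Bile acid synthesis and transport genes were higher in adenomas in 24 of 25 cases (median 4.35), and urea cycle and amino acid catabolism genes in 24 of 30 (median 4.06). Bhmt2, a methyltransferase of methionine metabolism, and Hgd, of tyrosine breakdown, differed by 6.36 (SE 0.55, adjusted p = 4.4e-06) and 6.13 (SE 0.63, adjusted p = 1.6e-05). Gluconeogenesis and glycogen genes were higher in 12 of 15 (median 3.69), led by Slc2a2, the liver glucose transporter (6.24, SE 0.64, adjusted p = 1.5e-05), and Gys2, liver glycogen synthase (5.38, SE 0.33, adjusted p = 3.9e-07). None of the genes of these 3 lists was lower in adenomas.

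Glycolytic isoenzymes of other tissues showed the opposite. Of 17 measured, 11 were lower in adenomas, 1 (Ldhb, 1.14, SE 0.32, adjusted p = 0.011) was higher and 5 did not pass (median -0.78). Pkm, the pyruvate kinase of muscle and proliferating cells, read 8.11, 7.58, 8.04, 7.80 and 8.43 in adenomas and 12.02, 11.96, 12.39, 12.16 and 12.09 in carcinomas. The difference was -4.13 (SE 0.16, adjusted p = 2.1e-08), and the livers were at 6.28 and 6.24. Pklr, the liver isoenzyme, was 9.30 to 10.55 in adenomas and 4.17 to 5.06 in carcinomas (difference 5.17, SE 0.26, adjusted p = 1.0e-07). Hk1, a hexokinase of non-liver tissue, differed by -3.33 (SE 0.13, adjusted p = 3.0e-08). The carcinomas thus had more Pkm and less Pklr than the adenomas in every array.

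Lipid genes were mostly higher in adenomas. Cholesterol synthesis genes were higher in 18 of 19 cases (median 2.69), with Fdps at 3.31 (SE 0.30, adjusted p = 6.4e-06) and Msmo1 at 3.29 (SE 0.35, adjusted p = 1.7e-05). Fatty acid oxidation genes were higher in 20 of 21, led by Cyp4a14 (6.37, SE 0.89, adjusted p = 0.00014) and Ehhadh (5.95, SE 0.42, adjusted p = 9.7e-07). The member that was lower, the coactivator Ppargc1a (-1.55, SE 0.57, adjusted p = 0.040), did not pass in 8 of the 10 fits without 1 array. Fatty acid synthesis genes were higher in 18 of 24, with Elovl2 at 5.63 (SE 0.72, adjusted p = 7.7e-05). Acly, which makes acetyl-CoA for lipid synthesis, was lower (-0.99, SE 0.24, adjusted p = 0.0049) and was below its liver means of 12.60 and 12.75 in both tumours.

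Acute phase genes were higher in adenomas in 18 of 26 cases, lower in 3 and did not pass in 5 (median 3.12). Orm2 and Orm1, orosomucoids, differed by 5.55 (SE 0.61, adjusted p = 2.3e-05) and 4.96 (SE 1.04, adjusted p = 0.0022). Mt2, a metallothionein, and Socs3, a cytokine feedback inhibitor, were lower at -1.96 (SE 0.37, adjusted p = 0.0012) and -1.30 (SE 0.35, adjusted p = 0.0099), as was Stat3 at -0.60 (SE 0.20, adjusted p = 0.029). Of 17 iron and hepcidin genes, 9 were higher, 3 lower and 5 did not pass, against 29.5% higher and 25.8% lower over all genes. Hjv and Tmprss6, which tune hepcidin through BMP signalling, were higher at 5.25 (SE 0.27, adjusted p = 1.1e-07) and 4.13 (SE 0.20, adjusted p = 8.9e-08). The BMP target Id1 (-3.07, SE 0.35, adjusted p = 2.9e-05) and the ligand Bmp2 (-2.34, SE 0.51, adjusted p = 0.0029) were lower, as was the BMP and TGF-beta feedback gene Smad7 (-2.21, SE 0.40, adjusted p = 0.00084). For Id1 and Bmp2, carcinoma 4 was the highest array, at 12.28 and 12.52.

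Some genes that differ between male and female liver varied widely among the adenomas. Of 15 male-biased genes, 9 were higher in adenomas and 6 did not pass, and of 15 female-biased genes, 10 were higher and 5 did not pass. The share higher in adenomas over all genes was 29.5%. Cyp4a12a, a male-specific P450, read 12.41, 7.45, 12.04, 6.22 and 11.37 in adenomas and 3.81 to 5.27 in carcinomas. Adenomas 2 and 4 were far below the liver means of 11.93 and 11.50, and the other 3 were near them (difference 5.62, SE 1.14, adjusted p = 0.0018). Cyp2d9, the other leading male-biased gene, was steady by comparison, at 12.31 to 13.57 in adenomas and 5.70 to 9.63 in carcinomas (difference 5.32, SE 0.62, adjusted p = 3.6e-05). Sult2a2 and Sult1e1 are sulfotransferases chosen after their values were seen as the most variable genes of the adenomas. Sult2a2 read 5.54, 12.62, 7.21, 13.55 and 7.99 in adenomas 1 to 5, so it was high in adenomas 2 and 4, where Cyp4a12a was low. Sult1e1 read 4.35, 4.87, 4.40, 12.48 and 6.79, and was high in adenoma 4 but not in adenoma 2. Hao2 and Slc22a27, female-biased genes, were highest in adenoma 4 at 10.88 and 8.66, and were also higher in liver with phenobarbital (3.14, adjusted p = 0.00018, and 2.06, adjusted p = 0.0076). In liver, 7 of the 15 female-biased genes were higher with phenobarbital and 4 of the 15 male-biased genes were lower. The shares over all genes were 0.879% higher and 0.341% lower with phenobarbital. The female-biased median of 2.25 equalled the difference of Cyp2b13, a member of the CAR and PXR target list. That median was 1.26 without adenoma 4.

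Oxidative stress genes were mostly higher in adenomas, and markers of fetal liver and liver tumours were mixed. Of 20 NRF2 target genes, 16 were higher, 1 lower and 3 did not pass (median 3.24), and adenoma 5 had the highest mean level of the list, 12.26 against 10.30 to 11.12 in the other adenomas. Gstm3, a glutathione transferase, differed by 6.03 (SE 0.47, adjusted p = 1.9e-06). Cbr3, a carbonyl reductase on both lists, read 11.83, 9.31, 13.01, 10.51 and 13.93 in adenomas, 6.04 to 8.16 in carcinomas, 10.12 in phenobarbital liver and 6.44 in untreated liver. Of 24 fetal liver and tumour marker genes, 12 were higher, 4 lower and 8 did not pass (median 1.07, and 0.72 without adenoma 4). The shares over all genes were 29.5% higher and 25.8% lower.

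Afp (alpha-fetoprotein), the fetal counterpart of albumin, read 8.56, 11.10, 10.74, 10.59 and 11.42 in adenomas and 5.26, 5.67, 6.34, 6.39 and 4.42 in carcinomas. The livers were at 5.13 and 5.21, so the adenomas stood above them and the carcinomas near them. The difference was 4.86 (SE 0.54, adjusted p = 2.6e-05). Gpc3, a glypican of fetal liver, read 4.97, 7.62, 8.54, 9.98 and 8.50 in adenomas and 6.27 to 7.42 in carcinomas. The groups overlapped because of adenoma 1, and the difference of 1.11 (SE 0.75, adjusted p = 0.23) was 1.85 (adjusted p = 0.0061) without it. Cd24a and Epcam, surface proteins of progenitor cells, were lower in adenomas at -3.57 (SE 0.58, adjusted p = 0.00040) and -2.56 (SE 0.77, adjusted p = 0.017). The fetal chromatin protein gene Hmga2 (-2.46, SE 0.16, adjusted p = 4.6e-07) and the aldo-keto reductase gene Akr1b8 (-1.74, SE 0.38, adjusted p = 0.0032) were the other 2 that were lower.

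The median proliferation gene was above liver in both tumours, and most of these genes did not pass between them. Of 27 cell cycle and mitosis genes, 1 was higher, 3 lower and 23 did not pass, so 4 of 27 passed where 55.3% of all genes did. Relative to its own liver the median member was 1.67 higher in adenomas and 2.12 higher in carcinomas. The median difference between the tumours was -0.38, and it was -0.08 without carcinoma 3 and -0.62 without adenoma 3. Mki67, the Ki-67 antigen, read 8.82, 8.48, 9.27, 7.62 and 8.66 in adenomas and 9.02, 9.09, 10.92, 8.84 and 9.37 in carcinomas, against 5.64 and 5.93 in liver. Its difference was -0.88 (SE 0.41, adjusted p = 0.093), and -0.51 (adjusted p = 0.16) without carcinoma 3, the highest array. Top2a and Ccna2 were lower in adenomas, at -1.51 (SE 0.46, adjusted p = 0.018) and -1.16 (SE 0.26, adjusted p = 0.0036), as was Bub1b, at -0.82 (SE 0.26, adjusted p = 0.022). The groups overlapped for Top2a and Ccna2, and another Top2a probe set passed in the other direction. Foxm1 was the member that was higher (0.34, SE 0.13, adjusted p = 0.044), and it did not pass in 7 of the 10 fits without 1 array. Its carcinoma mean of 6.58 was below the untreated liver mean of 6.85. Of 30 DNA replication genes, 3 were higher (Mcm10 at 1.39, Tk1 at 0.92 and Orc1 at 0.44), 7 were lower and 20 did not pass, and the median member was 0.84 above liver in adenomas and 1.23 in carcinomas. Mcm10 and Tk1 were below liver in both tumours, Mcm10 by differences of -2.18 in adenomas and -4.02 in carcinomas and Tk1 by -0.54 and -1.77. Tk1 did not pass in 5 of the 10 fits without 1 array. Rfc3, a clamp loader subunit, was at 11.69 in carcinoma 3 and at 8.76 to 9.36 in the other carcinomas (difference -1.66, SE 0.47, adjusted p = 0.013).

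Genes of muscle and nerve were higher in carcinomas in many cases. Over all genes, 25.8% were lower in adenomas, 29.5% were higher and 55.3% passed in either direction. Of 24 muscle genes, 14 were lower in adenomas, 4 higher and 6 did not pass. Their median was -1.85, and it was -1.22 when probe sets of a gene were averaged. Without dim probe sets it was -3.15, but a probe set could pass that filter through the carcinomas alone. The filtered median is therefore no separate check of the direction. Tnnt1, the slow skeletal troponin T, was 5.21 to 5.86 in adenomas and 10.77 to 12.99 in carcinomas (difference -6.64, SE 0.38, adjusted p = 2.4e-07). The 2 largest rises in adenomas that passed, Lmod1 (0.73, SE 0.17, adjusted p = 0.0047) and Actc1 (0.46, SE 0.12, adjusted p = 0.0094), were small, and Mb (0.43) and Myh6 (0.30) were smaller still. Of 28 neural genes, 13 were lower, 1 (Dcx, 0.26, SE 0.09, adjusted p = 0.034) was higher and 14 did not pass. Their median was -0.67, with -0.42 when probe sets of a gene were averaged and -1.01 without adenoma 4. Dcx did not pass in 6 of the 10 fits without 1 array, nor with quantile normalization (adjusted p = 0.064), array weights (0.059) or the replicate block (0.078). Nptx1, a neuronal pentraxin, was 12.89 to 13.65 in carcinomas and read 6.69, 9.45, 5.32, 5.12 and 4.73 in adenomas, with livers at 3.92 and 4.18. The difference was -7.10 (SE 0.76, adjusted p = 2.0e-05), and adenoma 2 was the highest adenoma.

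Among developmental factors, the larger differences were toward carcinomas. Of 36 Hox, T-box and other factor genes, 9 were higher in adenomas, 10 lower and 17 did not pass, shares near the 29.5% and 25.8% of all genes called in each direction. The median (0.03) and the mean (-1.06) differed in sign. The largest rises that passed were Sox17 (1.09, SE 0.14, adjusted p = 8.1e-05) and Hoxb5 (1.08, SE 0.16, adjusted p = 0.00025). Sox2, a stem cell factor, was 3.25 to 3.46 in adenomas and read 11.62, 11.04, 7.60, 10.72 and 10.86 in carcinomas (difference -7.02, SE 0.62, adjusted p = 4.7e-06). Of 16 imprinted genes, 4 were higher, 4 lower and 8 did not pass, also near the shares of all genes, with a median of 0.09 and a mean of -0.50. Ndn and Peg3 were lower at -4.28 (SE 0.45, adjusted p = 1.6e-05) and -4.15 (SE 0.52, adjusted p = 6.7e-05), each with another probe set that passed in the other direction, and Grb10 and Cdkn1c were lower at -2.75 (SE 0.52, adjusted p = 0.0012) and -2.17 (SE 0.40, adjusted p = 0.00099). The 4 that were higher, Mirg, Igf2r, Peg10 and Dlk1, differed by 0.34 to 1.06. Meg3, a long noncoding RNA of the Dlk1-Dio3 cluster, read 5.62, 13.25, 7.41, 10.62 and 6.85 in adenomas and 5.57, 7.14, 11.30, 5.56 and 6.22 in carcinomas. Its spread within each group exceeded the difference of 1.59 (SE 1.52, adjusted p = 0.40).

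Matrix and vessel genes moved in opposite directions. Of 30 stellate cell, fibroblast and matrix genes, 22 were lower in adenomas, 1 was higher and 7 did not pass (median -1.64). The gene that was higher was Fn1 (fibronectin, also made by hepatocytes), at 1.41 (SE 0.46, adjusted p = 0.025), which did not pass in 3 of the 10 fits without 1 array. Fbln1, a matrix protein, and Pdgfra, a growth factor receptor of fibroblasts, differed by -4.41 (SE 0.44, adjusted p = 1.2e-05) and -4.19 (SE 0.52, adjusted p = 6.0e-05). Of the defining markers, Lrat, Dcn, Col1a1 and Col3a1 were lower and Pdgfrb did not pass, and their mean was 8.03 to 9.83 over adenoma arrays and 10.08 to 11.31 over carcinoma arrays. Of 25 endothelial genes, 18 were higher in adenomas, 2 lower and 5 did not pass (median 1.41). The markers Stab2, Lyve1, Pecam1, Kdr and Clec4g were all higher, with a mean of 8.41 to 8.67 over adenomas and 4.90 to 6.11 over carcinomas. Lyve1 and Clec4g, genes of liver sinusoids, differed by 3.98 (SE 0.41, adjusted p = 1.5e-05) and 3.69 (SE 0.32, adjusted p = 4.2e-06). Flt1, a VEGF receptor, went the other way (-3.07, SE 0.42, adjusted p = 0.00012), as did Bmp2. The part of a different mix of cells in these results was not tested.

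Immune lists were mixed, apart from interferon genes. Over all genes, 29.5% were higher and 25.8% lower in adenomas. Of 25 macrophage genes, 5 were higher, 3 lower and 17 did not pass, with a median of -0.0045, whose sign turned under 4 other scalings and weightings, and a mean of 0.31. Cd5l and the Kupffer cell lectin Clec4f were higher at 4.07 (SE 0.57, adjusted p = 0.00015) and 2.33 (SE 0.28, adjusted p = 4.9e-05), and Cx3cr1 was lower (-1.02, SE 0.29, adjusted p = 0.014). The others that were higher were Vsig4 (2.16), Cd68 (1.38) and Mrc1 (1.07), and the others that were lower were the class II genes H2-Aa (-1.02) and H2-Ab1 (-0.94). H2-Aa did not pass in 6 of the 10 fits without 1 array. Of 22 lymphocyte genes, 8 were higher, 1 (Cd3g, -1.03, SE 0.26, adjusted p = 0.0071) was lower and 13 did not pass. Of the other defining lymphocyte markers, Cd3e (0.44, SE 0.11, adjusted p = 0.0052), Cd79a (0.71) and Ms4a1 (0.86) were higher, and Nkg7 did not pass. The mean of these markers with Cd3g was 5.19 to 5.74 over adenoma arrays and 4.97 to 5.67 over carcinoma arrays. Cd79b, of the B cell receptor, was at 6.35 to 7.28 in adenomas and 4.91 to 5.99 in carcinomas. Interferon response genes were higher in 22 of 26 cases and lower in 1 (median 1.57). Oasl1 (3.12, SE 0.28, adjusted p = 5.9e-06) and Ifih1 (3.01, SE 0.23, adjusted p = 1.7e-06) led, and Usp18 was lower (-0.86, SE 0.25, adjusted p = 0.013). Of 18 p53 target genes, 4 were higher, 7 lower and 7 did not pass, with Fas at 3.16 (SE 0.30, adjusted p = 7.6e-06) and Pmaip1 at -3.30 (SE 0.64, adjusted p = 0.0013).

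Keratins of hepatocytes were higher in adenomas, and Krt7 of bile ducts was higher in carcinomas. Krt8 and Krt18, the hepatocyte pair, were higher in adenomas at 4.42 (SE 0.25, adjusted p = 2.5e-07) and 1.70 (SE 0.46, adjusted p = 0.0094). Krt8 was 12.66 to 13.26 in adenomas, above the liver means of 11.60 and 11.54, and 8.06 to 9.40 in carcinomas, below them. Krt7, a duct keratin, was 4.22 to 4.61 in adenomas and read 7.55, 11.26, 11.10, 8.99 and 10.51 in carcinomas (difference -5.42, SE 0.62, adjusted p = 3.2e-05), and Krt23 differed by -6.07 (SE 0.57, adjusted p = 7.9e-06). Of 17 biliary and progenitor genes, 5 were higher, 3 lower and 9 did not pass, against 29.5% higher and 25.8% lower over all genes. Their median was 0.16 (0.06 without carcinoma 2 and 0.28 without carcinoma 4) and their mean -0.20. Besides the keratins, Slc5a1 (1.08), Pkhd1 (1.05) and Tspan8 (0.44) were higher. Krt19, a defining duct marker, averaged 5.99 in adenomas and 5.65 in carcinomas and did not pass.

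**Figure D5:**
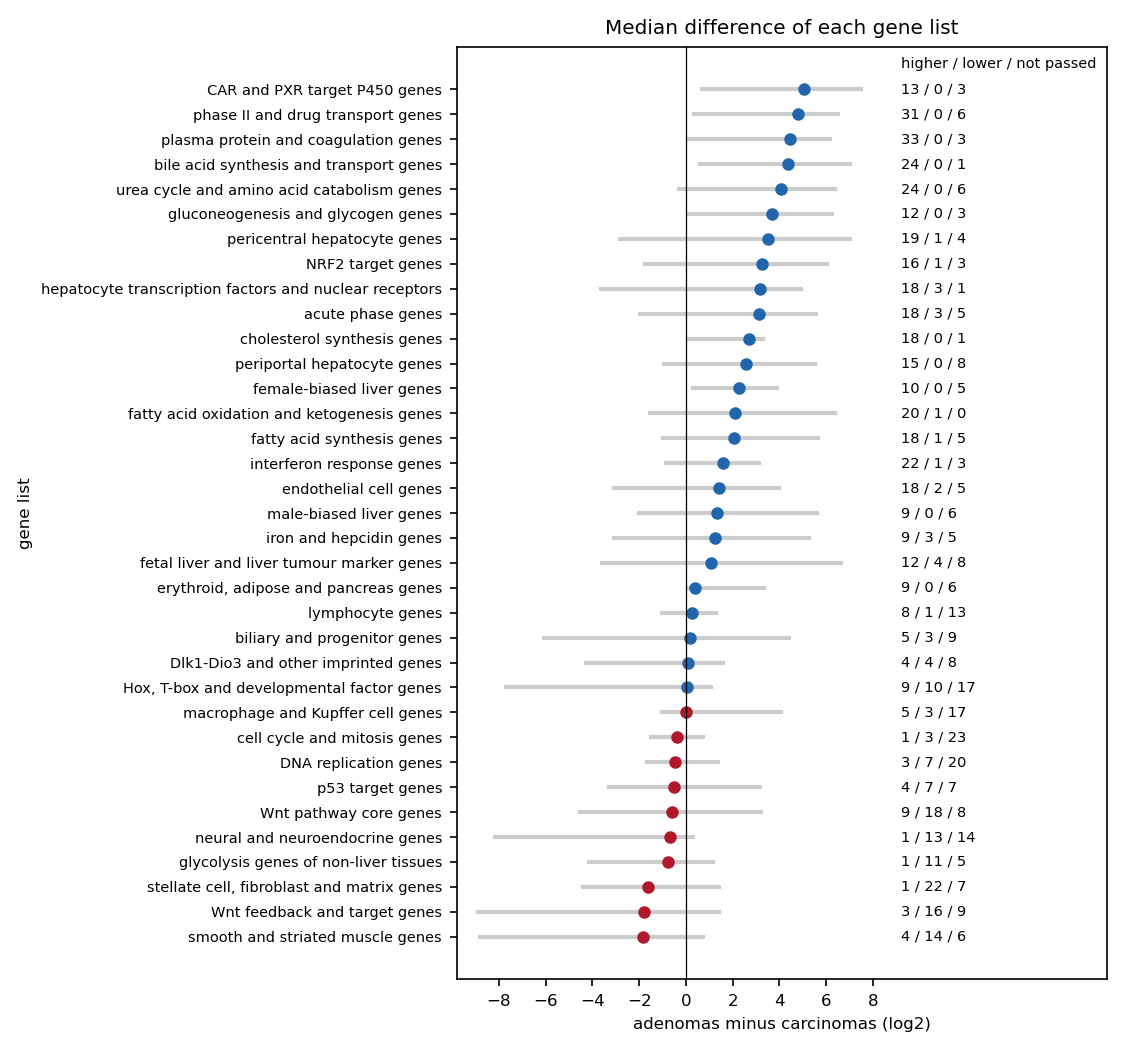
Median difference of 35 gene lists, adenomas minus carcinomas (log2, horizontal axis), as points, with grey lines from the lowest to the highest member and the counts of members higher, lower and not passed at the right. The P450 list lies highest at 5.03, and the Wnt feedback, muscle and matrix lists lie lowest, at -1.79, -1.85 and -1.64.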

How the data were processed

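RNA from 20 liver samples was hybridised to Affymetrix 3′ expression arrays, 1 sample per array. The authors deposited log2 values of 45037 probe sets, made with RMA (background correction, quantile normalization and probe set summary) per the submitters' processing notes. The genome build and RMA software version are not given in the sources used here. Arrays have no read depth, and 5 per group limit the precision. Array medians were 5.52 to 5.57 in adenomas and 5.61 to 5.63 in carcinomas, a small offset without overlap. Lower quartiles went the other way, at 4.27 to 4.34 in adenomas and 4.21 to 4.25 in carcinomas, also without overlap. The main fit leaves both offsets in, which bears on small differences between dim levels. No value was missing.

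Of the probe sets, 34945 have a single symbol in the platform annotation, 932 have several and 9160 have none. These 34945 were fitted with limma 3.58.1 (R 4.3.3, lmFit and eBayes, 8 residual degrees of freedom) on the 10 tumour arrays, two-sided, threshold 0.05 after Benjamini-Hochberg adjustment. The code was tested on simulated data. A gene was read from its probe set with the highest mean, names ending in _x_at passed over. Named genes were the 12 largest differences each way among passing genes that did not overlap between groups, 4 marker genes, a panel of 15 genes and up to 2 passing members each way per list. Symbols that were only model numbers were passed over. The members, lists and named genes were chosen with earlier results of these data known. Same-numbered adenoma and carcinoma arrays deviated from their group means with correlations of -0.03 to 0.05, so numbers do not pair samples. Alternatives covered dim probe sets, probe set choice, scaling, weights, the replicate block and leaving out each array.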

Additional observations from a re-analysis of the deposited data

Results flagged for a closer look

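Among 330 groups of 5 tumour arrays looked at for the named genes and the list means, 28 had 1 array far from the other 4 by Dixon's criterion, which chance alone meets in about 1 group of 20. Carcinoma 3 was that array 9 times. It was lowest for Armh4 (10.47, others 12.99 to 13.36), Wnt5a (8.06, others 10.43 to 11.07), Sox2 (7.60, others 10.72 to 11.62), Krt18 (9.16, others 11.57 to 11.83) and Akr1b8 (7.68, others 9.29 to 9.72). It was highest for Meg3 (11.30, others 5.56 to 7.14), Mki67 (10.92, others 8.84 to 9.37), Rfc3 (11.69, others 8.76 to 9.36) and Mirg (6.13, others 5.32 to 5.38).

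Carcinoma 4 was highest for Axin2 (12.49), Id1 (12.28), Bmp2 (12.52) and the mean level of the biliary and progenitor genes (7.13, others 6.24 to 6.50), and lowest for Dner (12.82) and Onecut1 (7.52). Carcinoma 1 was lowest for Ctnnb1 (13.75) and Ppargc1a (6.86, others 9.41 to 10.20), and highest for Cyp4a14 (7.47) and Lyve1 (6.70, others 4.22 to 4.93).

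Among adenomas, adenoma 5 was highest for Apcdd1 (6.50, others 4.82 to 5.0) and lowest for Orm1 (10.70, others 12.95 to 13.02) and Slc2a2 (11.22). Adenoma 2 was highest for Mirg (8.0, others 6.16 to 6.26) and for the mean level of the hepatocyte transcription factors (9.56, others 9.00 to 9.14), and lowest for Cd5l (9.50). Adenoma 4 was lowest for Cyp2e1 (14.24) and highest for Lmod1 (6.17), and adenoma 1 was highest for Dner (6.59, others 4.72 to 5.24).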

How the results depend on the processing

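The count of genes passing between adenomas and carcinomas was 7334 to 11296 under the 9 other settings, against 10061. Keeping probe sets above the median level on at least 5 arrays gave the fewest, fewer probe sets being tested. It gave 3270 genes higher and 4064 lower in adenomas, so that the share higher fell from 53.3% to 44.6% of those passing. A probe set could pass that filter through the adenomas alone or the carcinomas alone. Leaving out each array gave 9158 to 9759 genes. With the replicate block the count was 9258, of which 9032 also passed without it, and Mki67 then passed (adjusted p = 0.014). Centring each array on its median moved that share to 60.3%. The liver comparison called 37 genes in a fit over all 20 arrays, against 222, and 115 to 204 without single arrays, an alternative added after seeing the data; the cause was not tested.

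Of 2461 values of 130 named genes under alternatives, 2404 kept direction and side of the threshold. The Lgr5 difference turned sign, to 0.069 averaging probe sets, 0.010 centred, 0.023 quantile normalized and 0.024 with array weights. It ranged from -0.40 to 0.37 without single arrays, above 0 without carcinoma 4, adenoma 2 or adenoma 4. The medians of 4 lists turned sign. Without dim probe sets the imprinted list was at -0.22, the developmental list at -2.05 and the biliary list at -0.38. Members dim in adenomas could pass that filter through the carcinomas alone, so these 3 medians do not check the direction. The developmental median was -0.050 to 0.051 without single arrays, below 0 without carcinoma 1, 2, 4 or 5 or adenoma 2. The macrophage median was 0.11 averaging probe sets, 0.073 centred, 0.037 quantile normalized, 0.11 weighted, and -0.099 to 0.20 without single arrays, above 0 without carcinoma 1, 3 or 4 or adenoma 2. The cause of these changes was not tested. Levels near the low and high ends of the array scale understate differences.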
